A study of Mus musculus with 2 samples.

Results

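The Mir322-503 cluster is a group of 7 miRNA hairpins that lie together on the minus strand of the mouse X chromosome, at chrX:53047997-53054349 (mm10). Its members were taken by symbol: Mir322, Mir503, Mir351, Mir542, Mir450-2, Mir450-1 and Mir450b, 7 of the 1973 miRNA genes in the tables. They were measured by small RNA sequencing of the embryonic facial prominences, the outgrowths of mesenchyme and epithelium that build the face and jaws. The study holds 1 group of 2 biological replicates of B6NCrl embryos at embryonic day 10.5, which the labels call healthy and for which they name no mutation or treatment. Replicate 1 pooled the prominences of 69 embryos and replicate 2 those of 51, each with males and females together. The labels do not say how many of each sex were pooled, nor how RNA was extracted or libraries were built. There is thus no contrast between conditions, and the values below compare hairpins within the tissue and the 2 pools with each other.

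A miRNA gene makes a hairpin from which a duplex of about equal arms is cut, named 5p and 3p after their place in the hairpin. The loaded arm finds messenger RNAs through its seed, bases 2 to 8 from its 5′ end, so miRNAs with the same seed form a family with overlapping targets. miR-322 (the mouse counterpart of human miR-424) and miR-503 belong with miR-15, miR-16, miR-195 and miR-497, which repress cyclins and other drivers of the step from G1 to S phase. They are best known for holding back the cell cycle during muscle differentiation. miR-351 carries the seed of miR-125, a family known from the control of progenitor growth and differentiation. miR-542-3p is known to repress survivin, a protein of dividing cells that protects them from apoptosis. The Mir450 hairpins are less well described.

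The 5p arms of Mir322, Mir503 and Mir351 are printed first, beside arms from elsewhere in the genome, so that their seeds, in capitals, can be compared. Sequences and coordinates are those of RefSeq on GRCm38.p6, the same build as mm10, in which all 7 members had a mature entry (13 different arms in all, of 21 to 24 bases).
miR-322-5p, chrX:53054306-53054327: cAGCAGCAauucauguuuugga
miR-15a-5p, outside the cluster: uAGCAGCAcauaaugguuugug
miR-15b-5p, outside the cluster: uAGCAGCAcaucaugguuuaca
miR-16-5p, outside the cluster: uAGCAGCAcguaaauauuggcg
miR-195a-5p, outside the cluster: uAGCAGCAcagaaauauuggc
miR-503-5p, chrX:53054027-53054049: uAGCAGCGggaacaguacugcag
miR-351-5p, chrX:53053315-53053338: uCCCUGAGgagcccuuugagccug
miR-125a-5p, outside the cluster: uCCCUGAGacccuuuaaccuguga
miR-125b-5p, outside the cluster: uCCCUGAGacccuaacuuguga

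miR-322-5p held the full seed of the Mir15 and Mir16 hairpins. miR-503-5p shared bases 1 to 7 with miR-16-5p and differed in the last base of the seed (G8A, written with the miR-503-5p base first, then the position from the 5′ end, then the miR-16-5p base). After the seed the likeness was looser. miR-322-5p was identical to miR-15b-5p at 16 of 22 positions, to miR-15a-5p at 15, to miR-16-5p at 12 and to miR-503-5p at 11, when read from base 1 without gaps. miR-351-5p was identical to miR-125b-5p at 10 of 22 positions, with a longest common stretch of 8 bases. The seed of miR-503-5p was found in no other mature miRNA of the table.

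The remaining arms are shown to let the Mir450 hairpins be compared with each other and with Mir542.
miR-542-3p, chrX:53049415-53049436: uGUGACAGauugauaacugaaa
miR-542-5p, chrX:53049453-53049474: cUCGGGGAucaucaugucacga
miR-450a-5p, in Mir450-2 and again in Mir450-1: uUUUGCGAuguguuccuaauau
miR-450b-5p, chrX:53048044-53048065: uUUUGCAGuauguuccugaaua
miR-450a-2-3p, chrX:53048304-53048325: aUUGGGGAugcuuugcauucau
miR-450a-1-3p, chrX:53048171-53048192: aUUGGGAAcauuuugcauaaau
miR-450b-3p, chrX:53048008-53048029: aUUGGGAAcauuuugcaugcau

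The 13 arms carried 12 different seeds, and 4 of these seeds occurred in a hairpin outside the cluster. Only miR-450a-1-3p and miR-450b-3p shared a seed between differently named arms of the cluster. Those arms differ at 2 of 22 positions, A19G and A20C, with the miR-450a-1-3p base first. miR-450a-5p and miR-450b-5p differ in the last 2 bases of the seed (G7A and A8G, miR-450a-5p base first) and were identical at 15 of 22 positions.

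All 7 hairpins were detected, which here means at least 10 counts in each library. Over all 1973 genes 376 (19.1%) met that minimum. Levels are given in CPM, the count of a hairpin scaled to a common library size by the library's total of 2853511 counts (replicate 1) or 3517226 counts (replicate 2) on annotated miRNA genes. A count takes in both arms of the hairpin. CPM was not divided by length, because a read spans a whole arm and the arms are of nearly the same length. Small RNA libraries capture some sequences better than others, so an order of levels is an order of reads. Reads that map to several places are not in these counts, so levels, ranks and shares are those of assigned reads.

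Mir322 dominated the cluster. It had 25602 CPM in replicate 1 and 25169 CPM in replicate 2, a mean of 25386 ± 307 CPM (SD, n = 2), and ranked 8 among all genes (ENSMUSG00000065418.1, chrX:53054255-53054349). It alone made up 85.3% of the cluster's counts in replicate 1 (exact Clopper-Pearson 95% interval 85.0% to 85.5%) and 86.0% in replicate 2 (85.7% to 86.2%). The other 6 hairpins together had 4422 and 4113 CPM. Intervals here and below cover counting error only, as PCR copies of a molecule are not independent reads.

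Mir351, the hairpin with the miR-125 seed, came next with 2677 and 2338 CPM, a mean of 2508 ± 239 CPM (ENSMUSG00000065503.1, chrX:53053255-53053353). Mir322 exceeded it by 9.56-fold in replicate 1 and by 10.8-fold in replicate 2. Mir503, the second hairpin with the cell cycle seed core, followed with 712 and 805 CPM, a mean of 759 ± 65.4 CPM (ENSMUSG00000076122.1, chrX:53053984-53054054). It was thus far below Mir322, from which only 200 bases separate it.

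Mir542 had 651 and 601 CPM, a mean of 626 ± 35.2 CPM (ENSMUSG00000076140.1, chrX:53049403-53049487). Mir503 and Mir542 were the closest neighbours in the order, 1.09-fold apart in replicate 1 and 1.34-fold in replicate 2. Mir450b had 351 and 337 CPM, a mean of 344 ± 10.1 CPM (ENSMUSG00000076050.1, chrX:53047997-53048078). The lowest members were Mir450-1, with 25.2 and 25.9 CPM (ENSMUSG00000065486.1, chrX:53048154-53048244), and Mir450-2, with 5.61 and 5.69 CPM (ENSMUSG00000076399.1, chrX:53048299-53048367). The values of Mir450-2 rest on 16 and 20 counts, with counting intervals of 3.20 to 9.11 and 3.47 to 8.78 CPM.

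**Figure D1:**
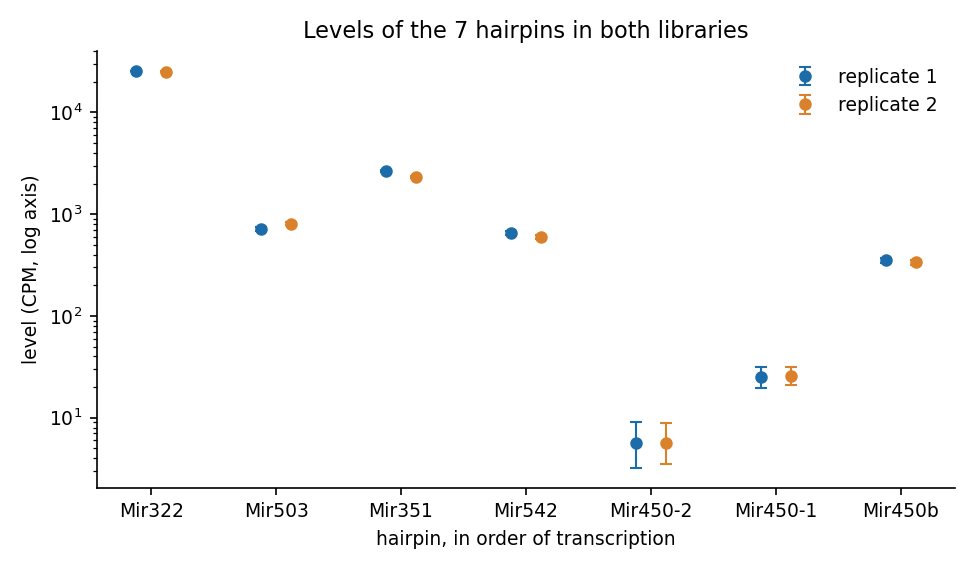
Level of each hairpin in CPM on a log axis, replicate 1 in blue and replicate 2 in orange, with exact 95% counting intervals as bars (smaller than the points for the higher hairpins). Mir322 sits at 25602 and 25169 CPM, and the 2 libraries keep the same order of the 7 hairpins. Mir450-1 and Mir450-2 may lack reads that fit both.

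The order Mir322, Mir351, Mir503, Mir542, Mir450b, Mir450-1, Mir450-2 held in both libraries. In 6 of 6 neighbouring pairs the lower library of the higher hairpin was above the higher library of the next. The places of Mir450-1 and Mir450-2 are those of assigned reads, which may lack reads that fit both hairpins. The smallest p that an exact two-sided sign-flip permutation test over 2 libraries allows is 0.5, so no pair was tested. Among all genes the levels lay at ranks 8, 65, 114, 120, 147, 278 and 347 in that order, and the median mean level of the detected genes was 164 CPM. Mir322 was separated in both libraries from Mir26b just above it (27033 ± 416 CPM) but not from Mir99b just below (25214 ± 1011 CPM). Mir351 ranked between Mir139 and Mirlet7i, Mir503 between Mir494 and Mir543, Mir542 between Mir350 and Mir676, Mir450b between Mir679 and Mirlet7d, Mir450-1 between Mir3067 and Mir7654, and Mir450-2 between Mir551b and Mir103-1. None of these 12 neighbours was separated from its member in both libraries.

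**Figure D2:**
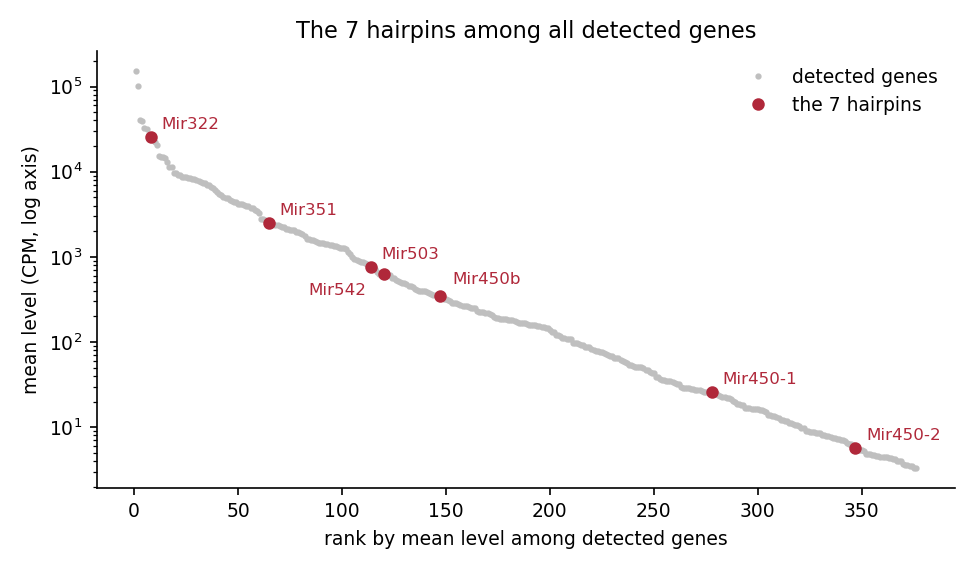
Mean level in CPM on a log axis against rank for the 376 detected miRNA genes in grey, with the 7 hairpins in red. The hairpins run from rank 8 (Mir322) to rank 347 (Mir450-2).

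Along the direction of transcription the hairpins come as an upstream trio and a downstream group of 4. Mir322 is first, Mir503 begins 295 bases and Mir351 996 bases from the start of Mir322, and a gap of 3767 bases precedes Mir542. Mir450-2, Mir450-1 and Mir450b follow one another closely, with gaps of 54 and 75 bases, at the end of the 6353-base cluster. The upstream trio held 96.6% of the cluster's counts in replicate 1 and 96.7% in replicate 2. Level did not fall steadily with distance: Mir351 was above Mir503, which precedes it, by 3.76-fold and 2.91-fold. By assigned reads, Mir450b, the last hairpin, was above Mir450-1 and Mir450-2, which precede it. Counts of that pair may lack reads that fit both hairpins. No member overlaps another gene in GENCODE M21. There the long non-coding gene C430049B03Rik ends 696 bases upstream of Mir322, and Gm28730 lies between Mir542 and Mir351. RefSeq draws C430049B03Rik longer, at chrX:53053112-53057190, so that it spans Mir322, Mir503 and Mir351 and none of the other 4.

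**Figure D3:**
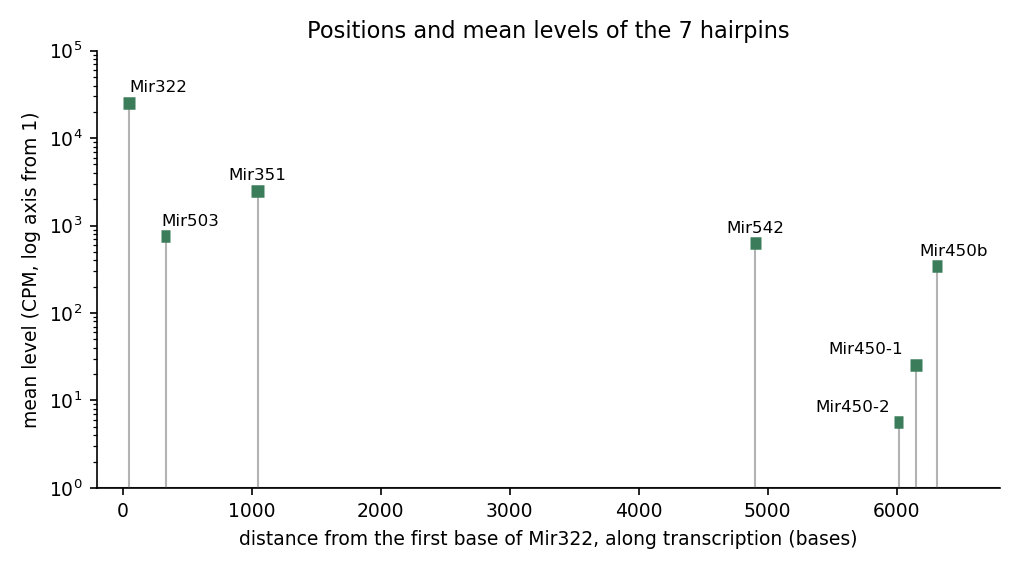
Mean level of each hairpin in CPM on a log axis against distance in bases from the first base of Mir322 along transcription; each green block spans the hairpin's length. The upstream trio holds the 3 highest levels, and the last hairpin, Mir450b, stands above Mir450-1 and Mir450-2, which may lack reads that fit both.

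The hairpins also fell into 2 kinds by base composition. The G and C content was 50.5% to 54.9% in Mir322, Mir503, Mir351 and Mir542, and 30.5% to 36.2% in the 3 Mir450 hairpins. Mir450-1 and Mir450-2 are close copies. Their hairpins are printed with the arm they have in common, miR-450a-5p, in capitals.
Mir450-1, 91 bases, minus strand: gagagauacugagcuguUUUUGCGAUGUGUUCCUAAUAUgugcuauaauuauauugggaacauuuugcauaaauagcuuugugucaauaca
Mir450-2, 69 bases, minus strand: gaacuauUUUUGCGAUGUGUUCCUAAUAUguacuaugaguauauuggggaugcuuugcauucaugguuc

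The whole of miR-450a-5p occurs in both hairpins, within an identical stretch of 25 bases. The other 12 arms of the cluster, the 3p arms of both hairpins among them, each occurred in 1 gene only among the annotated transcripts of GENCODE M21. The rest of the genome was not searched. In the tables reads that map to several places stand on a line of their own, outside the gene counts. They made up 27.6% and 25.9% of the libraries, and the tables do not divide them by miRNA. The 88 and 111 counts of Mir450-1 and Mir450-2 together (30.8 and 31.6 CPM) may therefore lack reads of miR-450a-5p that fit both copies equally, and the levels of these hairpins are best read as lower limits. Mir450b, which shares up to 19 bases with Mir450-1, had 11.4 and 10.7 times the CPM of the pair. The other 5 members shared no stretch of 20 bases with any other annotated miRNA hairpin.

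Mir322 supplied most of the assigned counts of the miR-15 and miR-16 family in this tissue. Mir503 was counted with the family although its seed differs from the others in the last base. Mir322 and Mir503 together had 74.8% of the family's counts in replicate 1 (exact interval 74.5% to 75.0%) and 74.5% in replicate 2 (74.2% to 74.7%), a mean of 74.6% ± 0.216. The rest came from a list of 8 matched hairpins elsewhere in the genome, which summed to 8892 ± 19.4 CPM. Mir15a had 3789 and 4088 CPM, Mir16-1 2394 and 2102 CPM, and Mir15b 1733 and 1939 CPM. Mir322 was higher than each of them in both libraries, and Mir503 was below all 3 and above Mir16-2 (573 and 425 CPM) and Mir195a (388 and 350 CPM). Mir195b had no count in either library (up to 1.05 and 0.853 CPM are allowed by a count of 0, taken as 3 counts), and Mir497b and Mir1907 had at most 5 counts in a library. Mir497 had no matched gene, so its reads are not in the share. Counted on either strand, the share was 73.4% (mean of 2 libraries). The members had no opposite-strand counts, so the added reads lay on listed hairpins outside the cluster. Which of these hairpins held them is not given here. Mir16-1 and Mir16-2 both hold miR-16-5p and stand under the same limit as Mir450-1 and Mir450-2. The share is therefore one of assigned reads, and reads of miR-16-5p on the line of several places would lower it by an amount that the tables do not give. Leaving out the hairpins of that kind, all outside the cluster, can only raise the share (81.0%) and sets no bound on it.

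By assigned reads, Mir351 was close to the leading hairpin of the miR-125 family. Mir125a had 2801 and 2596 CPM, against 2677 and 2338 CPM for Mir351, and the libraries of the 2 hairpins overlapped. Mir125b-1 had 1594 and 1303 CPM and Mir125b-2 416 and 425 CPM. Mir351 held 35.8% (35.1% to 36.4%) and 35.1% (34.5% to 35.7%) of the counts of these 4 hairpins, a mean of 35.4% ± 0.462. Mir125b-1 and Mir125b-2 hold the same miR-125b-5p, so the same limit holds and the place of miR-125b in this order is not known. Of the counts of Mir351 and Mir125a alone, Mir351 held 48.1%.

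**Figure D4:**
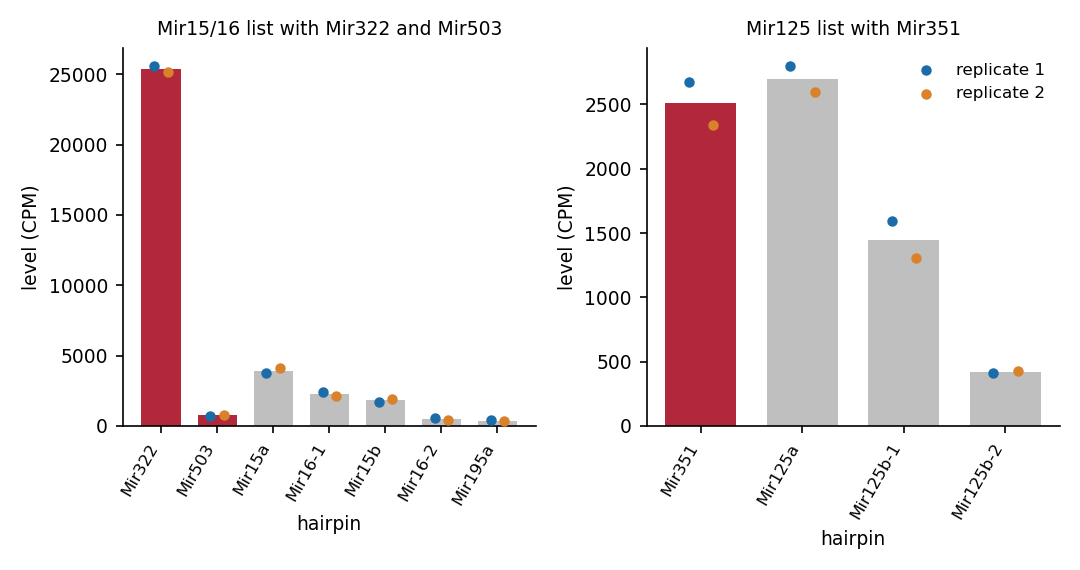
Levels in CPM of the detected hairpins of each seed family, cluster members in red and hairpins elsewhere in grey; bars are the mean of 2 libraries and dots the libraries. Mir322 stands above every other hairpin of the left panel, while Mir351 and Mir125a overlap in the right panel.

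The 2 pools gave nearly the same amount of the cluster. Its summed level was 30025 and 29282 CPM, a mean of 29653 ± 525 CPM, or 3.0% (2.98% to 3.02%) and 2.93% (2.91% to 2.95%) of all counts. The log2 ratio of replicate 2 over replicate 1 was -0.04, with a 95% counting interval of -0.05 to -0.02 (exact two-sided binomial p = 6.15e-08). The difference thus exceeded counting error, but it was small beside the log2 ratios of single genes between these pools. Across the 320 genes that averaged 10 CPM or more, members among them, those ratios had a median size of 0.18 and an SD of 0.39. Single genes with few counts carry more counting error in their ratios than the sum does. In bulk tissue, fewer cells that make a miRNA and less of it per cell cannot be told apart.

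Single members moved in both directions between the pools. By the exact binomial test on all 449 genes with at least 10 counts, adjusted by the Benjamini-Hochberg method, 4 of 7 members passed 0.05, against 40.3% of all genes tested. Of these, 3 were lower in replicate 2, as were 20.3% of all genes tested, and 1 was higher, as were 90 of the 449 genes (20%). Mir351 was lower, with a log2 ratio of -0.20 (interval -0.24 to -0.15, adjusted exact p = 1.2e-16). Mir503 was higher, with a ratio of 0.18 (0.09 to 0.26, adjusted exact p = 0.000101). Mir542 was lower with -0.11 (-0.21 to -0.02, adjusted exact p = 0.0336) and Mir322 with -0.02 (-0.04 to -0.01, adjusted exact p = 0.00213).

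The 3 Mir450 hairpins did not pass, with ratios of -0.06 for Mir450b (-0.18 to 0.06), 0.04 for Mir450-1 (-0.43 to 0.50) and 0.02 for Mir450-2 (-1.0 to 1.07). At 16 and 20 counts the interval of Mir450-2 takes in differences of up to 2-fold in either direction, so smaller ones were not detectable at this depth. The median ratio of the 7 members was -0.02, beside 0.02 over the 320 genes. Within the cluster, the share of Mir503 was 2.37% (2.27% to 2.48%) in replicate 1 and 2.75% (2.65% to 2.85%) in replicate 2, while that of Mir351 was 8.92% (8.73% to 9.11%) and 7.99% (7.82% to 8.15%).

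These binomial tests set 2 libraries against each other beyond counting error only. When the spread between the pools over all genes was taken as replicate error (edgeR's exact test with a common dispersion, a biological coefficient of variation of 0.176), 0 of 7 members passed, and 0 had an unadjusted p under 0.05 (smallest exact p = 0.593, Mir503), while 1 of 449 genes (0.223%) passed. That spread was taken from the same 2 libraries that were compared, so few genes could pass, and the outcome says little about the members. With library scaling by edgeR's TMM factors, 2 of 7 passed the binomial test, Mir503 and Mir351.

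**Figure D5:**
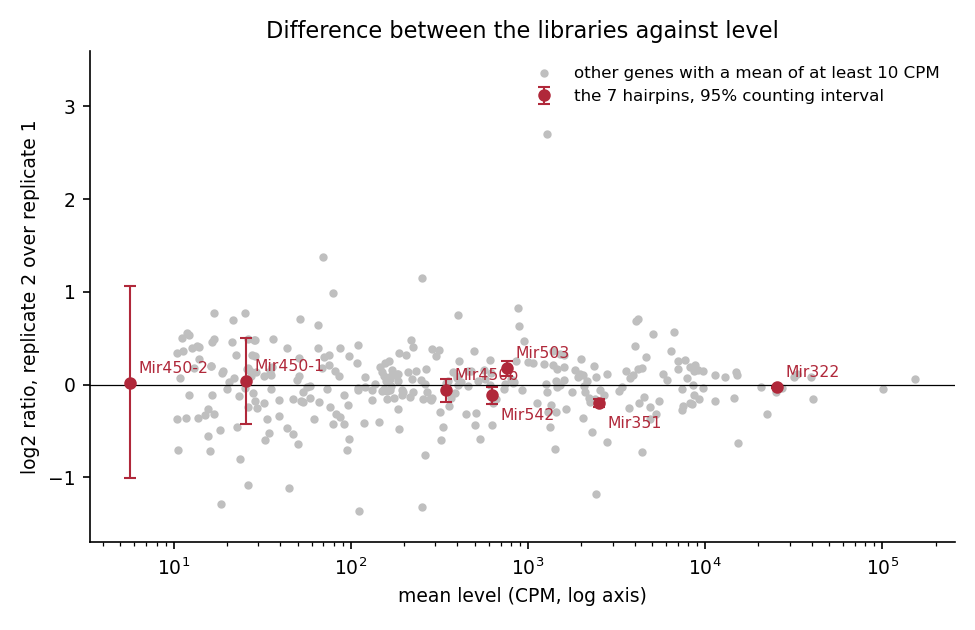
Log2 ratio of replicate 2 over replicate 1 against mean level in CPM (log axis), the 7 hairpins in red with 95% counting intervals and other genes that averaged 10 CPM or more in grey. The members lie between -0.20 (Mir351) and 0.18 (Mir503), near the middle of the grey points.

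Genes outside the cluster whose ratio was most like that of the summed cluster (-0.04) were sought among 102 genes that averaged 1000 CPM or more. The 5 nearest were Mir487b (-0.04), Mir26b (-0.03), Mir369 (-0.04), Mir135b (-0.02) and Mir17 (-0.05), each within 0.013 of it. With 2 libraries this likeness is a single number per gene.

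Among the miRNA genes of the X chromosome, Mir322 was the highest. The cluster held 44.8% of the X chromosome's assigned counts in replicate 1 and 40.7% in replicate 2, and 41 of 120 X-linked genes were detected. Other X-linked hairpins with copies may lack reads that map to several places, so the true share may differ. A list of 20 other X-linked hairpins summed to 35189 and 40850 CPM, led by Mir652 (8235 and 9127 CPM), Mir106a (7666 and 8724 CPM) and Mir20b (4181 and 5132 CPM). In that list 12 hairpins were higher and 3 lower in replicate 2 by the exact binomial test, with a median log2 ratio of 0.19, where 20.3% of all genes tested were lower and 90 of 449 (20%) higher. By edgeR's exact test 1 of all 449 genes passed (0.223%). Whether the list and the cluster differ was not tested.

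Of 104 genomic clusters, formed from miRNA genes within 10 kb of each other on the same strand, this cluster ranked 6 by summed level. Clusters whose hairpins have copies may lack reads that map to several places, so this is a rank of assigned reads. In 9 of the 104 clusters at least 5 genes were detected. Its leading hairpin took a larger share (85.6%) than that of the other 8, of which the Mir17 cluster was next with 61.0%. Without hairpins that share a 20-base stretch the share was 85.7%, next to 85.0% for the leading hairpin of the Mir302 cluster. The leading hairpin of this cluster was not among those left out, so its share could only rise. The Mir302 share, 39.7% with all 5 detected hairpins, rests here on 3. Leaving hairpins out restores no missing reads, so these shares do not test the order of the clusters. The fold between the highest and lowest detected hairpin of this cluster was 4496, the largest of the 9, but it rests on Mir450-2. Over the 5 members with no such copy it was 73.8-fold, and the cluster then ranked 4 of 8, below the Mir302 cluster (1070-fold), the Mir17 cluster (453-fold) and the cluster of Mir487b (268-fold).

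The tissue label was checked with marker miRNAs. Hairpins of mesenchyme (6 of 6 detected) summed to 29168 and 25919 CPM, those of epithelium (7 of 7) to 28691 and 23965 CPM, and the endothelial Mir126a had 31642 and 34369 CPM. Markers of other cell types summed to 73 and 123 CPM (striated muscle, 3 of 7 matched detected, with Mir133a-1 and Mir133a-2 at 0), 723 and 630 CPM (neurons), 420 and 205 CPM (erythroid cells), 429 and 419 CPM (leukocytes) and 12.6 and 15.4 CPM (liver). Mir133a-1 and Mir133a-2 are copies of each other, so their reads may stand on the line of several places. The muscle sum thus does not show how much muscle the tissue held. The neuron sum was mostly Mir137 (680 and 593 CPM), with 2 of 6 matched hairpins detected. The numbered hairpins of Mir124a and Mir9 may be under the same limit, so that sum is no measure of neurons either. Mir199a-1 and Mir199a-2 of the mesenchyme list may be under it too. The mesenchyme sum was mostly Mir214 (15275 and 13802 CPM) and Mir143 (9047 and 7851 CPM). Mir9-1 (neurons), Mir142 (leukocytes) and Mir1a-2 (striated muscle) had no matched gene. The part of any cell type in the levels of the cluster was not tested.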

How the data were processed

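The authors deposited a table of raw read counts for each library, made for miRNA genes of GENCODE M4 on mm10, per the text files beside the tables. The sources used here do not give the aligner. Counts from the strand of the gene were taken (97.6% of gene reads in each library), and opposite-strand counts were 0 for all 7 members. The 4 summary lines stayed out of library totals. Of reads, 41.8% and 40.7% were counted on genes. Symbols came from GENCODE M21 by identifier without version (1894 of 1973 matched); shared stretches were sought in its transcript sequences.

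Ratios are log2 of CPM with a pseudocount of 0.5 CPM. The exact binomial test ran in SciPy 1.17.1; edgeR 4.0.16 and DESeq2 1.42.0 gave alternative scalings and edgeR its exact test with a common dispersion. With 1 library on each side edgeR's quasi-likelihood test has no residual degrees of freedom. The binomial procedure was tried on simulated data with counting noise only. That does not show how it behaves with the wider spread between these pools. The genes named are all members, the 5 genes of most similar ratio and the neighbours in level. The 3 highest hairpins of the seed family and X-linked lists are named too, with others by range. Other hairpins of the Mir15 and Mir16 list were named after their values were seen. Cell type markers are given as sums, with some single hairpins named beside them after their values were seen. Members and lists were chosen with earlier results of these data known.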

Additional observations from a re-analysis of the deposited data

How the results depend on the processing

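No paired analysis was possible because the libraries form 1 group and there is no second group to pair with. Counting reads on either strand gave a summed level of 28931 CPM, and 24767 CPM for Mir322, 5.51 for Mir450-2, 24.9 for Mir450-1 and 73.4% for the share of Mir322 and Mir503 in their seed family. The 7 members had no opposite-strand counts, so the levels of all 7 fell alike, through the larger library totals. The members named are those whose shift exceeded their SD. Scaled to all reads instead of gene counts, the summed level was 12231 CPM. Without hairpins that share a 20-base stretch, the family shares were 81.0% (Mir15 and Mir16) and 48.1% (Mir125), which could only rise as the hairpins left out lie outside the cluster, and the range of levels was 73.8-fold, an alternative chosen after seeing the data. The count of members past the exact binomial test was 2 with TMM factors and 0 with edgeR's exact test. It was 3 with every gene of at least 1 count tested, when Mir542 no longer passed, and 4 in the other 4 alternatives. Of 48 alternative values of single members' ratios, 41 kept their direction and side of the threshold, 7 kept only the direction (Mir322, Mir503, Mir351 and Mir542 with edgeR's exact test, Mir322 and Mir542 with TMM factors, Mir542 with the lower count minimum) and none was reversed. A changed count minimum or Fisher's exact test leaves the ratio as it is, so those alternatives could not reverse it. Counting either strand left the members' counts unchanged. Like the other scalings, it shifts the ratios of all 7 members nearly alike. The summed ratio stayed between -0.02 and -0.07 and under 0.05 in the exact test in all 7 of its alternatives. The exact test takes no pseudocount, so the alternatives that changed only the pseudocount could not change its p. Leaving out 1 library gave the other library's value, as printed above. Depth was lowest for Mir450-2 (16 and 20 counts), the 1 member not detected at a minimum of 50 counts in each library.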
